A study of Mus musculus with 3 samples.

Results

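Lcn2, Slpi, Nos2 and Cp are 4 inducible effectors of innate defence and the acute phase, and their RNA is described here in cultured mouse keratinocytes. They were chosen by name, with their differences between these libraries already known, from 41214 gene identifiers counted in each library, of which 11865 had 1 or more CPM (counts per 1000000 scaled counts) in 1 or more libraries and were compared. All 4 were among those compared. Lcn2 reached 1 CPM in 1 library and Nos2 in 2, whereas Slpi and Cp reached it in all 3. Their values are therefore a description and not a test.

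The study sequenced 1 culture of each of 3 genotypes, labelled wt, ARPC4 ko and Nrf2-EGFP. All were exponentially growing C57BL/6 keratinocytes, the epithelial cells of the epidermis, immortalised with SV40, and the labels record no treatment. The titles give all 3 the same line designation, with the word Cre added for ARPC4 ko and the word High for Nrf2-EGFP. ARPC4 belongs to Arp2/3, the nucleator of branched actin filaments, and Nrf2 (gene Nfe2l2) is a transcription factor of the antioxidant response. The label Nrf2-EGFP was read as a fusion of Nrf2 to a fluorescent protein, whose promoter the sources do not state. They also do not state whether each culture is 1 clone. With 1 library per genotype the spread between cultures is unmeasured, so differences below compare libraries, and intervals in parentheses are 95% intervals for counting error only.

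Epithelial cells can raise such effectors on contact with microbes or cytokines. Lcn2 encodes lipocalin 2, which binds bacterial siderophores and so withholds iron. Slpi encodes a small secreted inhibitor of neutrophil serine proteases with antimicrobial activity. Nos2 encodes the inducible nitric oxide synthase, which makes nitric oxide from arginine, and Cp encodes ceruloplasmin, a copper-carrying ferroxidase of the plasma. In epithelia and macrophages, NF-kB with its partners, among them C/EBP and STAT factors, is known to act on several of these genes.

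The libraries held between 22924294 and 25723959 gene counts. The level of Arpc4 was 94.2 CPM (wt), 61.0 (labelled ARPC4 ko) and 98.4 (labelled Nrf2-EGFP), and that of Nfe2l2 was 224.7, 179.5 and 166.4. Arpc4 RNA was thus still counted in the library labelled ARPC4 ko, and Nfe2l2 was lower, not higher, in that labelled Nrf2-EGFP. The count covers whole genes, and a deleted exon or a fusion transgene need not show in it. The directions below are therefore those of libraries named by their labels. Keratinocyte markers were abundant, with 13 of 14 above the filter and summed levels of 17905 CPM (ARPC4 ko) to 28704 CPM (wt). Krt5 and Krt14, the basal keratins, passed as lower for ARPC4 ko, and whether this bears on the 4 genes was not tested.

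All 4 genes were highest in the library labelled ARPC4 ko. In the order wt, ARPC4 ko and Nrf2-EGFP, counts of Lcn2 were 0, 40 and 5, and those of Nos2 were 3, 111 and 32. Counts of Slpi were 238, 927 and 692, and those of Cp 25, 641 and 25. Slpi and Nos2 shared an order, with wt lowest and Nrf2-EGFP between. Lcn2 had the same order of counts, but its wt and Nrf2-EGFP levels were not separated beyond counting error. Cp departed from this order, with the same raw count in the libraries labelled wt and Nrf2-EGFP. The plot of levels by library shows both shapes. In such bulk libraries, fewer cells that express a gene and less RNA per cell cannot be told apart.

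**Figure D1:**
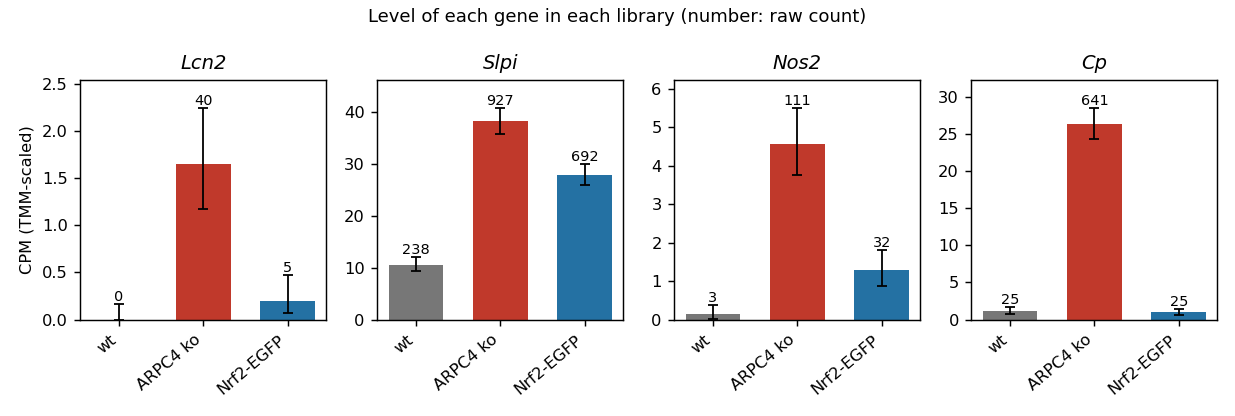
Bars give CPM (linear axis from 0, TMM-scaled) of each gene in the 3 libraries, lines the exact 95% Poisson interval of counting error, and numbers the raw counts. Each gene is highest in ARPC4 ko, and Cp has the same raw count in Nrf2-EGFP (25) as in wt (25).

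Slpi, the protease inhibitor, had the most counts of the 4 in every library. Its gene (ENSMUSG00000017002) lies on chromosome 2 from 164354070 to 164389095, minus strand, in mm10. Its level was 10.6 CPM (9.28 to 12.0) for wt, 38.1 (35.7 to 40.7) for the library labelled ARPC4 ko and 27.8 (25.8 to 30.0) for that labelled Nrf2-EGFP, and none of these intervals overlapped. The ratio of Slpi to its wt level was 3.60 (3.12 to 4.17) for ARPC4 ko and 2.63 (2.27 to 3.06) for Nrf2-EGFP. Between those libraries the ratio was 1.37 (1.24 to 1.51), in favour of ARPC4 ko and short of the size rule, which asks for a 2-fold difference of CPM + 0.5 and a ratio interval that excludes 1. Its difference from wt was 27.5 CPM for ARPC4 ko and 17.3 CPM for Nrf2-EGFP.

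Cp, the ferroxidase, was high in 1 library and low in the other two. Its gene (ENSMUSG00000003617) lies on chromosome 3 from 19957054 to 20009145, plus strand. Its level was 1.11 CPM (0.719 to 1.64) for wt, 26.4 (24.4 to 28.5) for the library labelled ARPC4 ko and 1.01 (0.651 to 1.49) for that labelled Nrf2-EGFP. The ratio was 23.7 (15.9 to 36.9) for ARPC4 ko over wt and 0.905 (0.499 to 1.64) for Nrf2-EGFP over wt, an interval that spans 1. Between the libraries labelled ARPC4 ko and Nrf2-EGFP the ratio was 26.2 (17.6 to 40.8), and by log2 fold (4.16) Cp ranked 1 of 11865 genes in that comparison. Against wt it ranked 3 in ARPC4 ko (log2 fold 4.06) and 7359 in Nrf2-EGFP (log2 fold -0.10). Exons of Cp share 108 bases with Hps3, a lysosome biogenesis gene on the opposite strand. Hps3 had 602 (wt), 547 (ARPC4 ko) and 518 (Nrf2-EGFP) counts, a ratio of 0.841 for ARPC4 ko over wt, and it did not pass the size rule.

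Nos2, the nitric oxide synthase, was near the limit of detection in wt and not in the other libraries. Its gene (ENSMUSG00000020826) lies on chromosome 11 from 78920787 to 78960254, plus strand. Its level was 0.133 CPM (0.0275 to 0.390) for wt, 4.57 (3.76 to 5.50) for the library labelled ARPC4 ko and 1.29 (0.881 to 1.82) for that labelled Nrf2-EGFP. From the 3 counts in wt the ratio was 34.2 (11.4 to 168) for ARPC4 ko and 9.65 (3.02 to 49.3) for Nrf2-EGFP. The direct ratio of those libraries rests on more counts and was 3.55 (2.37 to 5.43). Nos2 thus had a graded profile, like that of Slpi but with wider steps.

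Lcn2, the siderophore binder, was the least counted. Its gene (ENSMUSG00000026822) lies on chromosome 2 from 32384633 to 32388252, minus strand. Its 0 counts in wt allow up to 0.133 CPM at a floor of 3 counts, beside 1.65 CPM (1.18 to 2.24) for the library labelled ARPC4 ko and 0.201 (0.0653 to 0.470) for that labelled Nrf2-EGFP. With wt set to that floor, the ratio for ARPC4 ko was 12.3, and the lower limit of its counting interval was 9.57. For Nrf2-EGFP, with 5 counts, the lower limit was 0.829, so equal levels were not excluded. The ratio of ARPC4 ko to Nrf2-EGFP was 8.18 (3.23 to 26.5).

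**Figure D2:**
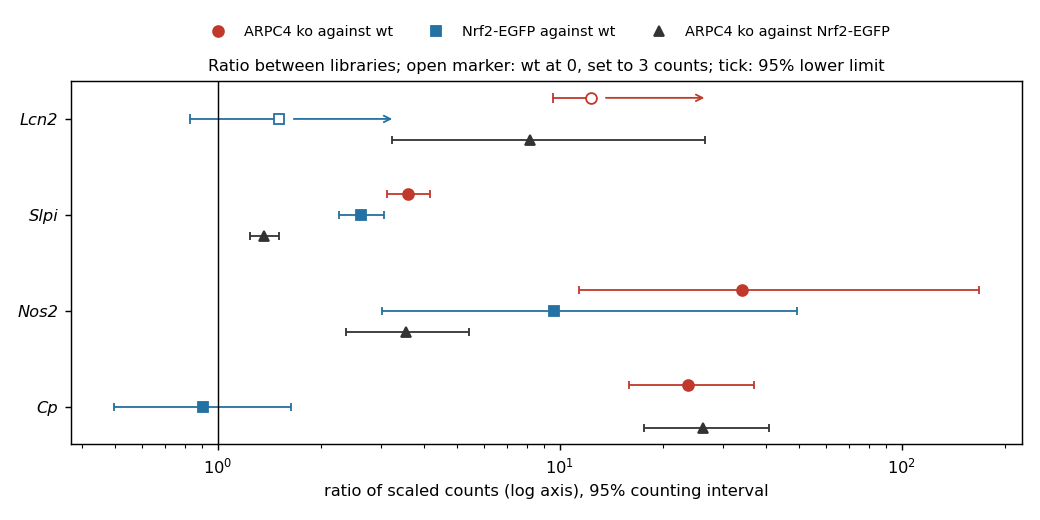
Ratios of scaled counts (log axis) with 95% counting intervals for each gene in the 3 comparisons. Open markers with arrows set the 0 counts of Lcn2 in wt to 3, and their ticks are 95% lower limits computed from the 0 counts. For Cp the interval of the ratio of Nrf2-EGFP to wt (0.905) spans 1, whereas that of ARPC4 ko to wt is 23.7.

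Read together, the size rule was passed as higher by 4 of 4 genes in ARPC4 ko against wt, where 4.70% of all genes compared did so, 2.06% passed as lower and 6.76% in either direction. It was passed as higher by 2 of 4 (Slpi and Nos2) in Nrf2-EGFP against wt, beside 3.57% of all genes (2.05% lower, 5.61% either), and by 3 of 4 (all but Slpi) in ARPC4 ko against Nrf2-EGFP, beside 2.01% (0.961% lower, 2.98% either). These shares are background only, since the genes were picked for these differences, and both comparisons with wt rest on the same wt library. The fold of Slpi in ARPC4 ko over wt lay below those of Cp and Nos2, with intervals that did not overlap, whereas the intervals of Cp and Nos2 overlapped. With a pseudocount of 2 CPM, Lcn2 no longer passed against either library and Nos2 no longer passed in the comparisons that involve Nrf2-EGFP.

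**Figure D3:**
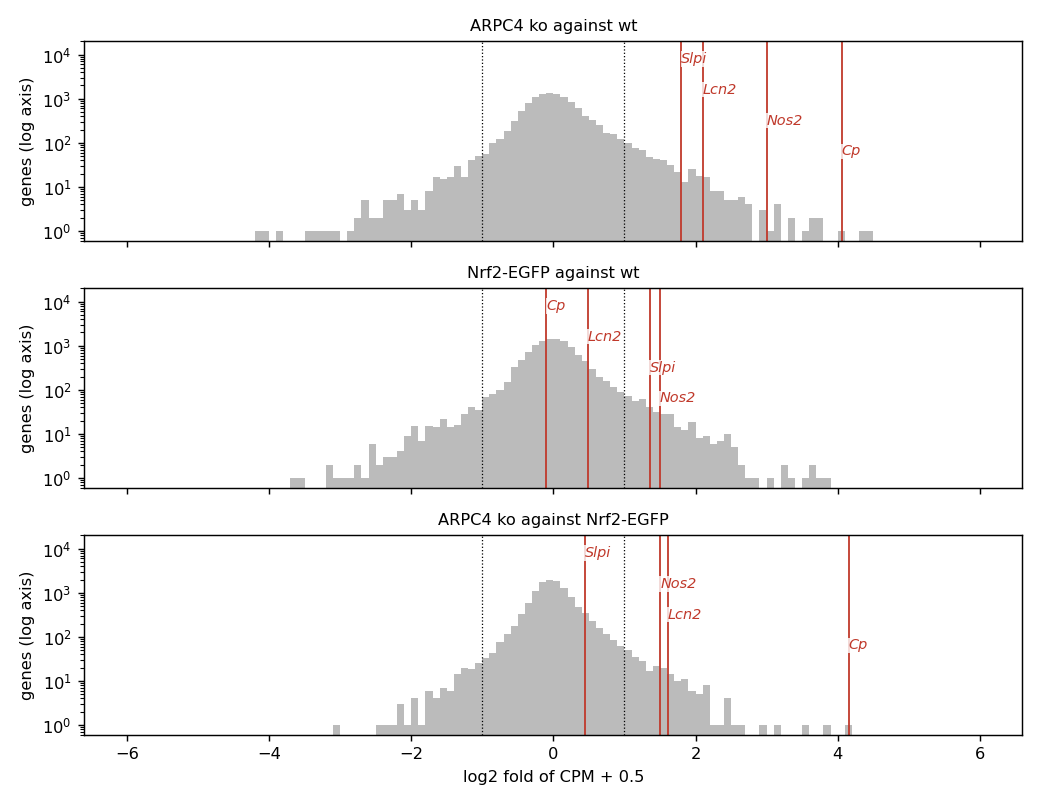
Histograms of the log2 fold of CPM + 0.5 over 11865 genes (bins of equal width, log count axis) in each comparison, with the 4 genes as red lines and the size rule as dotted lines. Cp lies at 4.06 against wt in ARPC4 ko and at -0.10 in Nrf2-EGFP, and Slpi at 1.80 and 1.35.

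Levels of different genes were compared per kilobase of exon (RPKM, from the scaled counts and the union of annotated exons). In the library labelled ARPC4 ko Slpi had 32.3 RPKM (above 86.1% of genes compared), Cp 2.76 (26.1%), Nos2 1.03 (13.1%) and Lcn2 0.627 (8.55%). In wt Slpi had 8.97 RPKM, Cp 0.116 and Nos2 0.0302, and in the library labelled Nrf2-EGFP the values were 23.6 for Slpi, 0.292 for Nos2, 0.105 for Cp and 0.0767 for Lcn2. Slpi thus made up 98.4% (wt), 88.0% (ARPC4 ko) and 98.0% (Nrf2-EGFP) of the summed RPKM of the 4 genes. Cp held 7.50% of that sum in ARPC4 ko against 1.27% in wt. The counting intervals of Nos2 and Lcn2 in ARPC4 ko met, and those of Cp and Lcn2 in Nrf2-EGFP overlapped, so these neighbours in the order were not separated. In wt the intervals of Cp and Nos2 overlapped as well. The longest transcript of the consensus coding set was also used in place of the exon union (915 bases against 2623 for Lcn2). Lcn2 then had 1.80 RPKM and Nos2 1.09 in ARPC4 ko, the opposite order. By that length Slpi had 43.5 RPKM and Cp 5.85 in ARPC4 ko, so the shares above depend on the length used.

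Promoter windows show the sequence around RefSeq starts of genes that were high together in the library labelled ARPC4 ko. RefSeq windows on GRCm38.p6, from 250 bases before a start to 50 after, were found for 3 of the 4 genes. Those below are Lcn2 (chr2:32387690-32387989, minus strand), Slpi (chr2:164356458-164356757, minus strand) and the second of 2 overlapping windows of Cp (chr3:19956999-19957298, plus strand), each from 5′ to 3′ along its gene. The Lcn2 and Slpi windows lie inside the annotated gene spans. They are away from the annotated 5′ ends (32388252 for Lcn2, 164389095 for Slpi), which served for distances to neighbouring genes. Capitals mark bases of any motif searched.
Lcn2: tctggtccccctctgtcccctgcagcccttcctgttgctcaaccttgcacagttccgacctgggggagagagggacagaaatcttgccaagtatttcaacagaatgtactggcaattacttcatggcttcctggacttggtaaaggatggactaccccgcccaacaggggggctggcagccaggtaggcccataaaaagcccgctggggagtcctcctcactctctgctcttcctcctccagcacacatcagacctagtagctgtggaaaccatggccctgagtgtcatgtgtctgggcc
Slpi: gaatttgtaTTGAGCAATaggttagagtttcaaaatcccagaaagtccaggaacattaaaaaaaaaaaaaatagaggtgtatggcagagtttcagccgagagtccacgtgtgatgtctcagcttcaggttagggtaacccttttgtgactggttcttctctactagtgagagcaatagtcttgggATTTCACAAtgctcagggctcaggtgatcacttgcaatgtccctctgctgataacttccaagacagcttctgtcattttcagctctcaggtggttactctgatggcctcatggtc
Cp: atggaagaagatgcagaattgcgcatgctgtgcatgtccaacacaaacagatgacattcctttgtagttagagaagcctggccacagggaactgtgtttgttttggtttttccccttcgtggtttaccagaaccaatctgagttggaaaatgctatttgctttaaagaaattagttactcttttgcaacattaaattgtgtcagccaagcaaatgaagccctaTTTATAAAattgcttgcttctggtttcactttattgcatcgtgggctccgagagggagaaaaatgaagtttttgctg

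Each motif was searched on both strands, and its share is that of 32851 windows of the same length. The Slpi window held the C/EBP motif TTNNGNAAT (11.5% of windows) at -241 and -65 from the start, where -1 is the base before it. The printed Cp window held the TATA box TATAAA (13.6%), matched on both strands in overlapping positions from -27, and the other Cp window held the AP-1 motif TGANTCA (7.81%) at -177. No window of the 3 genes matched the kappaB consensus (4.51%), the NRF2 antioxidant core TGACNNNGC (12.4%), the STAT motif TTCNNNGAA (8.30%) or the interferon element GAAANNGAA (8.56%), and the Lcn2 window matched none of the 7. The AP-1 and NRF2 patterns can share their first bases. A match is a string in a window and not a bound site, and windows further out were not searched.

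Within 200 kb of the 4 loci, 28 other genes were compared. Of these 3 passed the rule as higher in ARPC4 ko than wt, where 4.70% of all genes did, none as lower, and none in either direction for Nrf2-EGFP, where 5.61% of all genes did. With so few genes nothing is read from these counts. Near Lcn2 these were Dnm1 (dynamin 1, a membrane fission GTPase), with 30 (wt), 193 (ARPC4 ko) and 47 (Nrf2-EGFP) counts, and St6galnac4 (a sialyltransferase), with 26, 108 and 68. Near Slpi it was Wfdc2, a WAP-domain protein like Slpi, with 882, 2256 and 1810 counts. None of the 4 genes compared around Nos2 passed, including Lgals9 (galectin 9), whose ratio of ARPC4 ko to wt was 1.61, and none of the 4 around Cp.

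**Figure D4:**
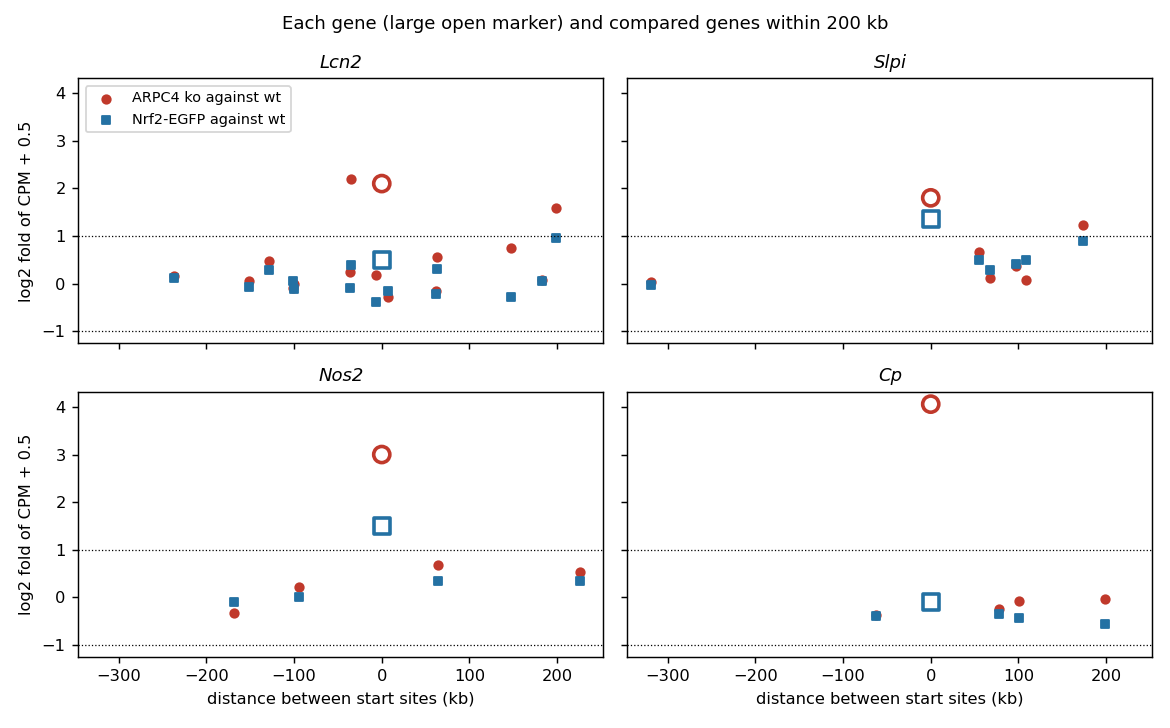
Log2 fold of CPM + 0.5 against wt for each of the 4 genes (large open markers) and the compared genes within 200 kb, by distance between start sites in kb, with circles for ARPC4 ko, squares for Nrf2-EGFP and dotted lines at the 2-fold size. Start sites here are the annotated 5′ ends of the genes. No neighbour of Nos2 or Cp passes the size rule.

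Other genes with the same roles were read as lists, each described by its counts past the rule and its median. For every list below, the shares of all genes compared are the background. Against wt, 4.70% passed as higher and 2.06% as lower in ARPC4 ko, and 3.57% and 2.05% in Nrf2-EGFP. With lists this small, nothing is read from counts near these shares. The lists were chosen with results of these data known, and many of their calls rest on few counts. With a pseudocount of 2 CPM, 18 of 48 list counts fell by over 1.5 times, and Steap4, Slc31a2, Tlr2, Orm1, Il33 and Il1rl2 no longer passed in ARPC4 ko against wt. Of 30 other antimicrobial proteins and peptides, 6 were above the filter and 13 had 0 counts in every library, Camp (cathelicidin) among them. In ARPC4 ko against wt 1 was higher and 1 lower, with a median log2 fold of 0.54 beside -0.01 over all genes. The higher one, Wfdc2, was at 39.2 CPM in wt and 92.8 in ARPC4 ko, a ratio of 2.37 (2.19 to 2.56), and the lower one was Defb1, a constitutive beta-defensin, with 95 (wt), 25 (ARPC4 ko) and 28 (Nrf2-EGFP) counts. Defb1 was 4.11-fold lower (2.62 to 6.66) in ARPC4 ko and 3.75-fold lower (2.44 to 5.94) in Nrf2-EGFP. Against wt, 2 of the 6 were lower in Nrf2-EGFP and none higher (median 0.56, all genes 0.0049), the second being Adm, a peptide hormone with antimicrobial activity, at 46 and 11 counts.

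Among 30 other acute-phase genes, 6 were above the filter, and the classical members Hp (haptoglobin) and Saa3 (serum amyloid A) had at most 4 counts in any library. In ARPC4 ko 3 were higher and 1 lower (median 0.34), and in Nrf2-EGFP 2 were higher and 2 lower (median 0.080). C3, the central complement component, had 481 (wt), 6795 (ARPC4 ko) and 3517 (Nrf2-EGFP) counts, with ratios to wt of 13.1 and 6.62. Orm1, an acute-phase carrier protein, went the other way, 4.66-fold lower (2.68 to 8.61) in ARPC4 ko and 3.05-fold lower (1.91 to 5.03) in Nrf2-EGFP. Serpina3g, a serine protease inhibitor, was below wt in Nrf2-EGFP, at 52 counts against 125. Steap4, a metalloreductase, had 9, 56 and 20 counts, a ratio of 5.76 (2.83 to 13.2) in ARPC4 ko, and its 2.01 (0.875 to 5.02) in Nrf2-EGFP included 1.

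For iron and copper handling, the setting of Cp and Lcn2, 25 of 35 other genes were above the filter and their median lay near that of all genes (-0.08 in ARPC4 ko, 0.05 in Nrf2-EGFP). In ARPC4 ko 2 were higher, Steap4 and Slc31a2 (a copper transporter, 2.08-fold, 1.83 to 2.36), and 1 was lower. That one was Hephl1, a ferroxidase related to Cp, with 125 (wt), 22 (ARPC4 ko) and 44 (Nrf2-EGFP) counts, which was 6.14-fold lower (3.88 to 10.2) and 3.14-fold lower (2.21 to 4.53). Cp and Hephl1 thus went in opposite directions in ARPC4 ko, while Heph, the third ferroxidase of the family, had at most 1 count. Slc40a1, the iron exporter with which Cp works, had 80, 132 and 117 counts and did not pass. Slc22a17, described as a receptor of lipocalin 2, was below the filter with 5, 18 and 3 counts.

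In the nitric oxide and arginine pathway, 16 of 23 other genes were above the filter, with medians of -0.04 (ARPC4 ko) and -0.03 (Nrf2-EGFP). In ARPC4 ko against wt none was higher and 2 were lower, but with total count scaling 2 were higher (Ddah1 and Gchfr) and 1 lower, Ass1 no longer passing, and with a pseudocount of 2 CPM Arg1 no longer passed. Ass1, which regenerates the arginine used by Nos2, was at 220.1 CPM in wt and 104.1 in ARPC4 ko, 2.11-fold lower (2.02 to 2.22). Arg1, the arginase that competes with it for arginine, had 115 (wt), 38 (ARPC4 ko) and 5 (Nrf2-EGFP) counts, so it was 3.27-fold lower (2.25 to 4.85) and 25.4-fold lower (10.6 to 79.8). Ddah1, which degrades inhibitors of nitric oxide synthases, was 2.52-fold higher (2.25 to 2.82) in Nrf2-EGFP and 1.99-fold (1.77 to 2.23), short of the rule, in ARPC4 ko. Gch1, the first enzyme of the synthesis of the cofactor tetrahydrobiopterin, had 155, 281 and 171 counts and did not pass. Of the other synthases, Nos1 had at most 1 count and Nos3 at most 20.

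Of 20 other WAP-domain proteins and partners of SLPI, 5 were above the filter. In ARPC4 ko 2 were higher and none lower (median 0.35), namely Wfdc2 and Plscr1 (a scramblase reported to bind SLPI, 2.67-fold, 2.40 to 2.98). In Nrf2-EGFP Plscr1 was higher (2.18-fold, 1.95 to 2.44) and Tmprss2, a membrane serine protease, was lower, with 7 counts against 53 (median 0.30). Elane, the neutrophil elastase that Slpi inhibits, had 0 counts in every library.

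**Figure D5:**
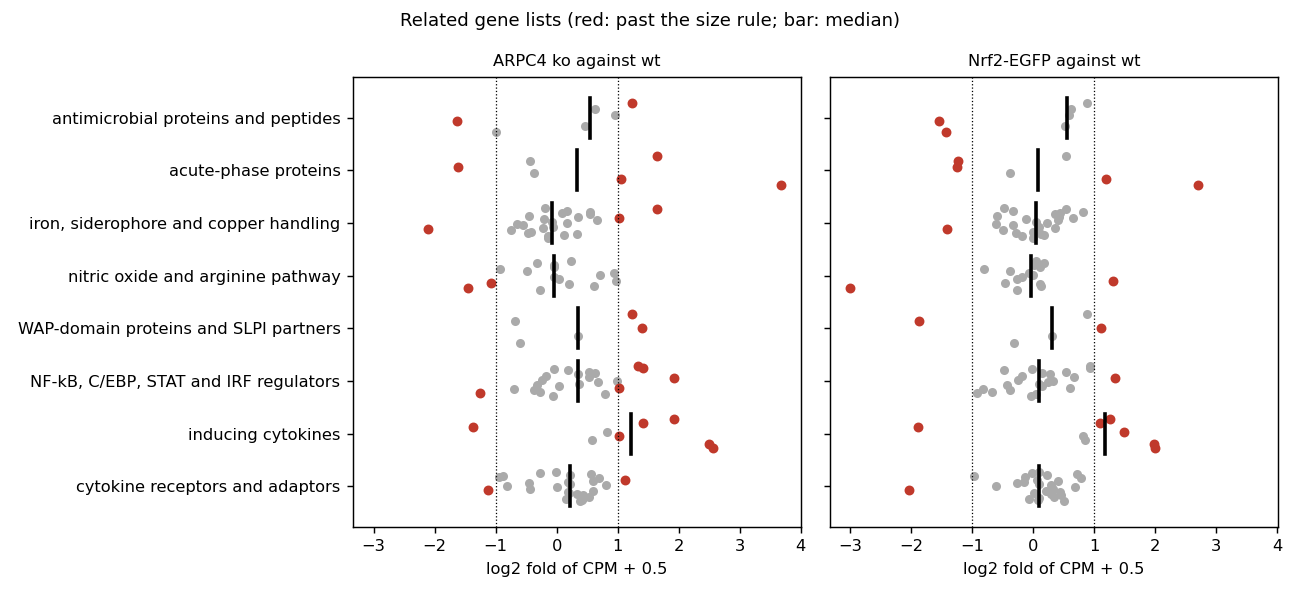
Each point is a gene of a related list (the 4 genes left out), placed by its log2 fold of CPM + 0.5 against wt in ARPC4 ko (left) and Nrf2-EGFP (right), with red for genes past the size rule, a bar for the list median and dotted lines at the 2-fold size. The medians of the cytokine list, 1.22 and 1.18, lie furthest from 0.

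Upstream, all 23 regulators of the NF-kB, C/EBP, STAT and IRF families were above the filter. In ARPC4 ko 4 were higher and 1 lower (median 0.35), and in Nrf2-EGFP 1 was higher and none lower (median 0.10). The higher ones were feedback genes and an activator: Nfkbie, an inhibitor of NF-kB (5.21-fold, 3.29 to 8.62), Tnfaip3, the deubiquitinase A20 (2.68-fold, 2.48 to 2.91), Zc3h12a, an RNase that degrades cytokine messages (2.58-fold, 2.29 to 2.91), and Irf1. Nfkbie was also the one in Nrf2-EGFP (3.33-fold, 2.06 to 5.61). Cebpa, a differentiation factor, was lower in ARPC4 ko, with 86 counts against 206. Nfkbiz, the partner of NF-kB at the Lcn2 gene, had ratios of 1.44 and 1.59, and Cebpb 0.824 and 0.618, and neither passed.

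Of 20 cytokines that can induce such effectors 19 were matched and 8 were above the filter. In each comparison with wt 5 were higher and 1, the alarmin Il33, was lower (medians 1.22 and 1.18). Of all genes, 4.70% (ARPC4 ko) and 3.57% (Nrf2-EGFP) were higher, and 2.06% and 2.05% lower. Csf2, Csf3, Lif and Tnf were among the higher cytokines in both, with Il1a in ARPC4 ko and Il24 in Nrf2-EGFP. Tnf had 306 (wt), 1284 (ARPC4 ko) and 831 (Nrf2-EGFP) counts, with ratios of 3.88 (3.42 to 4.41) and 2.46 (2.15 to 2.81). The colony-stimulating factors Csf2 (12, 136 and 90 counts) and Csf3 (29, 235 and 162 counts) had the graded order of Nos2. Unlike Nos2, no cytokine of the list passed in ARPC4 ko against Nrf2-EGFP. Il6 and Il17a had 0 counts in every library, and Il1b at most 3. Of 28 receptors and adaptors 27 were above the filter, with 1 higher and 1 lower in ARPC4 ko (median 0.22). Tlr2, a receptor of bacterial lipoproteins, was 2.29-fold higher (1.85 to 2.84) in ARPC4 ko and had a ratio of 1.05 (0.821 to 1.34) in Nrf2-EGFP, and Il1rl2, the interleukin 36 receptor, was lower in both, with 161, 73 and 34 counts (median in Nrf2-EGFP 0.10).

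Neutrophils and macrophages also make Lcn2, Slpi and Nos2, so their markers were read beside these genes. Of 22 markers 2 were above the filter, the summed level was 9.07 (wt), 13.3 (ARPC4 ko) and 12.0 (Nrf2-EGFP) CPM, and 12, 7 and 11 markers had 0 counts. Lyz2, Mpo and Adgre1 had 0 counts in every library and Ptprc, the pan-leukocyte marker, at most 1. The 2 above the filter were Cd68 (124, 150 and 117 counts) and Cd14, an endotoxin co-receptor (42, 107 and 122), and Cd14 was higher in both comparisons with wt. S100a8 and S100a9, calprotectin subunits shared by neutrophils and keratinocytes, had at most 14 counts, with the most in wt. Summed levels of 9 fibroblast markers were between 1.60 and 4.36 CPM with Vim at 12, 68 and 3 counts and higher for ARPC4 ko, and of 8 melanocyte markers between 2.21 and 5.43. The melanocyte factor Mitf had 56, 108 and 39 counts and passed as higher in ARPC4 ko against Nrf2-EGFP, with a ratio of 2.83 (1.95 to 4.19). Those of 8 endothelial markers were 27.7 (wt), 54.2 (ARPC4 ko) and 63.2 (Nrf2-EGFP) CPM, nearly all from Flt1, with Cdh5 at no more than 1 count. Of the 3 endothelial markers compared, Flt1 alone passed, as higher against wt in both comparisons. Log2 folds were above 0 for 1 of the 3 in ARPC4 ko (median -0.08) and for 2 in Nrf2-EGFP (median 0.43). The part of Flt1, Vim, Mitf and Cd14 in the results was not tested.

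The genes most like each of the 4 in profile were sought by the distance between pairs of log2 folds against wt, over 3 libraries and 9103 named genes. Nearest to Slpi were Ctsz, a lysosomal cysteine protease (distance 0.016, counts 311, 1190 and 894), Adamts4, an aggrecanase (0.025), and Apbb1 (0.11). Near Nos2 were the neutrophil chemokine Cxcl1 (0.28, with 818, 6698 and 3098 counts) and Mmp13, a collagenase (0.40). The log2 folds of Nos2 against wt rest on 3 counts in wt. With a pseudocount of 0.1 CPM they were 4.32 in ARPC4 ko and 2.57 in Nrf2-EGFP. Distances were not computed with that pseudocount, so the nearness of these genes to Nos2 is stated for 0.5 CPM only. Nearest to Lcn2, whose log2 folds rest on few counts, were Iqgap2 (0.19), Evc (0.30) and Mapk8ip1 (0.43). The nearest to Cp lay further off, with Cxcl2, another neutrophil chemokine, at 0.96 (106, 1098 and 130 counts), Cpt1c at 1.39 and Mill1 at 1.40. Cxcl2 had 9.58 times its wt level in ARPC4 ko and stood near wt in Nrf2-EGFP, which is the shape of Cp at a smaller size.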

How the data were processed

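RNA of 3 mouse keratinocyte cultures was measured, 1 library per genotype. Per the labels' protocols, a kit that keeps strand made the libraries from mRNA, read from 1 end over 65 bp. The deposited values are raw counts per gene, made by the authors with mm10, Bowtie 1.1, HTSeq and TopHat2 2.1.0, as the submitters' processing notes list them. No source used here gives the annotation release or how strand was set in counting. Rows that name no gene (8.22% to 9.08% of each table) were left out.

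Symbols, positions and exon lengths came from GENCODE M21 (GRCm38), matched by identifier for 40254 of 41214 rows. Counts were scaled with TMM factors (edgeR 4.0.16, R 4.3.3). Genes that reached 1 CPM in any library were compared. The log2 fold is that of CPM + 0.5. Ratios carry exact 95% Clopper-Pearson intervals conditional on the summed counts, and counts carry exact Poisson intervals. A gene passed the size rule with a log2 fold of at least 1 in size and a ratio interval that excluded 1. A count of 0 was taken to allow up to 3 counts. The ratios, their intervals and the size rule were tested on simulated counts with counting error only, without spread between cultures. No test of genotypes was possible with 1 library each, so no p-value is given.

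The 4 genes and all gene lists were chosen with earlier results of these data known. From each list were named up to 4 genes past the rule with the largest log2 fold in size against wt. Genes of similar profile were the 3 nearest in the pair of log2 folds against wt, among named genes with at least 10 CPM in a library. One of these genes is not reported here. Arpc4 and Nfe2l2 were named as checks of the labels, and other genes after their values were seen, as were the neighbouring genes. Alternatives were total count and RLE scaling, pseudocounts of 0.1 and 2 CPM, no filter, a filter of 10 CPM and another transcript length.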

Additional observations from a re-analysis of the deposited data

How the results depend on the processing

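All 48 alternative log2 folds of the 4 genes (scaling and pseudocount) kept their direction, and 35 stayed within the counting interval. A pseudocount of 2 CPM gave Cp 3.19 and Lcn2 0.87 in ARPC4 ko against wt, Nos2 1.62 there and 0.62 in Nrf2-EGFP against wt, and Cp 3.24, Lcn2 0.73 and Nos2 0.998 in ARPC4 ko against Nrf2-EGFP. With 0.1 CPM the values were 4.13 for Lcn2 and 4.32 for Nos2 in ARPC4 ko against wt, 1.59 for Lcn2 and 2.57 for Nos2 in Nrf2-EGFP against wt, and 4.58 for Cp and 2.53 for Lcn2 in ARPC4 ko against Nrf2-EGFP. By construction, the pseudocount moves genes with few counts most.

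Counts of all genes past the rule were lower under a pseudocount of 2 CPM and a filter of 10 CPM. ARPC4 ko against wt had 311 and 253 higher and 143 and 121 lower (558 and 244 as reported). Nrf2-EGFP against wt had 258 and 242 higher and 104 and 92 lower (423 and 243). ARPC4 ko against Nrf2-EGFP had 80 and 52 higher and 67 and 62 lower (239 and 114). Total count scaling moved the median of all genes in ARPC4 ko against Nrf2-EGFP from -0.02 to 0.11. Of 288 list counts under alternatives, 234 stayed within 1.5 times, and of the other 54, 24 fell under the filter of 10 CPM and 18 under the pseudocount of 2 CPM. With that pseudocount these no longer passed against wt in ARPC4 ko: Cd14, Steap4, Orm1, Slc31a2, Arg1, Irf1, Il33, Tlr2 and Il1rl2. In Nrf2-EGFP they were Adm, Defb1, Cd14, Orm1, Serpina3g, Tmprss2, Nfkbie and Il33. Total count scaling added Pglyrp3, Ddah1, Gchfr and Nfkbia as higher in ARPC4 ko and lost Ass1 as lower, and RLE scaling added Nfkbia.

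The transcript length, chosen after seeing the data, moved Slpi to 12.1, 43.5 and 31.8 RPKM (wt, ARPC4 ko, Nrf2-EGFP), Cp to 0.247, 5.85 and 0.223, and Lcn2 to 1.80 in ARPC4 ko and 0.220 in Nrf2-EGFP. Depth limits Lcn2 and Nos2 most, since 1 count in wt is worth 0.0445 CPM. No paired analysis was possible because each genotype has 1 library.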
